A study of Mus musculus with 22 samples.

Results

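The 37 genes described here are known to be expressed by microglia, and they were taken from a list of gene names. All 37 were found among the 23033 genes of the count table. Tissue of 3 brain regions of 8 mice was profiled by 3′ RNA-seq, a method that counts reads near the polyadenylated end of each transcript. The 22 libraries came from the hippocampus (3 from wild-type mice, 4 from CD mice), the cortex (4 and 4) and the cerebellum (4 and 3). CD stands for circTulp4-deficient: in these mice the splice acceptor site from which the circular RNA circTulp4 of the gene Tulp4 is backspliced had been edited in C57BL/6 zygotes with Cas9, and wild-type mice carried the unedited site. The edit is present in every cell, is described by the study as lowering circTulp4 and not as removing it, and is not aimed at microglia. Whole tissue was used, so each library holds the RNA of all cell types of its region. The age and sex of the mice are not given in the sources used here, and the regions came from the same mice. The series' design text gives 1 mouse fewer in each group than was deposited, and all deposited libraries were used.

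Microglia are the resident macrophages of the brain, and they survey the tissue, clear debris and prune synapses. They depend on signals through the receptor CSF1R, follow purines through receptors of the P2Y family, receive the neuronal chemokine fractalkine through CX3CR1, and are the main source of complement C1q in the healthy brain. The transcription factors PU.1 (gene Spi1) and IRF8 set up their program, and the protein IBA1 (gene Aif1) is the usual stain for them.

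Reference sequences around the start site were available for 28 of the 37 genes (RefSeq, GRCm38.p6, from 250 bases before the start to 50 after it). The promoters of 5 genes are shown because the results turn on these genes: Cyth4 had the largest fold change between cerebellum and hippocampus and P2ry12 between cerebellum and cortex, C1qc stands for the C1q cluster, Ctss for the lysosomal proteases and Ctsd differed least. They are chr15:78596797-78597096 (+ strand) for Cyth4, chr4:136892865-136893164 (− strand) for C1qc, chr3:95526536-95526835 (+ strand) for Ctss, chr7:142387778-142388077 (− strand) for Ctsd and chr3:59262936-59263235 (− strand) for P2ry12, each written 5′ to 3′ along the strand of its gene. Capitals mark matches to GAGGAAGT, a form of the PU.1 motif, or to TCACGTGA, the CLEAR motif of lysosomal genes, on either strand.
Cyth4: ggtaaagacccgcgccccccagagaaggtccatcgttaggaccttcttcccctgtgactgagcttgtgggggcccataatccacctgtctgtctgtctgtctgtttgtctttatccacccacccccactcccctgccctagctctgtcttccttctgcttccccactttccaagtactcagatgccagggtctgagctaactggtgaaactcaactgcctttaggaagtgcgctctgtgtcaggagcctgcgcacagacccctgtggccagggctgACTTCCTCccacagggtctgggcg
C1qc: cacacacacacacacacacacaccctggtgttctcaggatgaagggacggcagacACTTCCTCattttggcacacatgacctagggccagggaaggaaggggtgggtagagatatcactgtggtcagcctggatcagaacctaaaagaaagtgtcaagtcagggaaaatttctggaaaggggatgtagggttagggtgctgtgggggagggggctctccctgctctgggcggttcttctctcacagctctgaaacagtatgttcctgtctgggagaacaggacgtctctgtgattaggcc
Ctss: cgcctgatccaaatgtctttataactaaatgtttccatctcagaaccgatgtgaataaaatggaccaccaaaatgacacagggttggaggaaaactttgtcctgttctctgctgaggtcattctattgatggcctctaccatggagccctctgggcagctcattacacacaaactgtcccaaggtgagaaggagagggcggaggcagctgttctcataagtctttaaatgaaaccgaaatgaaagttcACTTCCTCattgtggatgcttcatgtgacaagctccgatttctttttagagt
Ctsd: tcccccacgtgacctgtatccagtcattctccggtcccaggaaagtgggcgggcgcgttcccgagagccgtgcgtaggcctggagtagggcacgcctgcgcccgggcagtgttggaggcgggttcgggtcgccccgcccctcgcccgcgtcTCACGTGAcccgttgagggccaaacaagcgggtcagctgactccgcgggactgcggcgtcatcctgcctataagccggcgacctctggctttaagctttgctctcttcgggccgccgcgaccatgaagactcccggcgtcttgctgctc
P2ry12: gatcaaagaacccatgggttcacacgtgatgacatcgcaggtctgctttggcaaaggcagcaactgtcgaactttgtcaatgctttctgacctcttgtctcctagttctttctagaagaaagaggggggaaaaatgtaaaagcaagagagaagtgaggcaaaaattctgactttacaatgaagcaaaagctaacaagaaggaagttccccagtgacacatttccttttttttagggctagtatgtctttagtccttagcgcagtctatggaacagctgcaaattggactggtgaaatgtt
The letters GAGGAAGT were present in the promoters of 6 of the 28 genes (21.4%), namely C1qc, Cd53, Ctss, Cyth4, Hpgds and Inpp5d, and in 3.69% of all 27025 genes with a promoter. The CLEAR letters were present in 2 of 28 (7.14%), Ctsd and Siglech, against 1.12% of all genes. Of 3 other motifs searched in the same way, TGACTCA (AP-1) was found in 1 of the 28 promoters against 5.95% of all genes, TGACGTCA (CRE) in 0 against 2.03%, and TATAAA in 6 against 15.7%. The motifs do not overlap one another in the promoters shown, and they were chosen with results of these data known. P2ry12 held neither of the marked motifs in this window.

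The libraries held between 2757684 and 8847478 counts over the 23033 genes. Levels are given in cpm (counts scaled to a common library size) after TMM normalization. Before TMM normalization 5 cpm stood for 13.8 to 44.2 counts. A gene entered a test when it reached 5 cpm on this unnormalized scale in at least 2 libraries. Over all 22 libraries 29 of the 37 genes passed this filter. Within a region 26 passed among hippocampi, 29 among cortices and 21 among cerebella. Region markers matched the labels: 7 cerebellar genes summed to 6291 to 7101 cpm in cerebellum libraries and to 48.4 to 84.5 cpm in the other regions. The 3 libraries of CD mouse m118 stood apart, with 8904 to 10201 cpm of haemoglobin genes and Alas2 against 2640 to 5958 cpm in the other mice. As a check of the targeted gene, counts of the Tulp4 transcript whose first exon lies in circTulp4 exceeded those of the transcript that differs from it in that exon by 2.71 to 3.69 cpm in wild-type and 0.42 to 0.57 cpm in 3 CD hippocampi, and by 3.98 cpm (16 counts) in the hippocampus of mouse m118, which thus went against its label. In its cortex and cerebellum the excess was 0.897 cpm (5 counts) and 1.55 cpm (7 counts). Both lay within the range of the other CD libraries (0.141 to 1.30 and 0.600 to 2.62 cpm). Both were below the lowest wild-type library (1.45 and 3.12 cpm). That wild-type cortex had 4 counts in the library with the fewest reads, so the cortex values do not settle the label. The excess is scaled by library totals without TMM. The main counts and the hippocampal genotype differences are given with and without mouse m118.

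The microglia genes were lower in the cerebellum than in the hippocampus and the cortex. The summed level of the 37 genes had a lowest, median and highest value of 437, 524 and 554 cpm in the 7 cerebella, 1106, 1240.3 and 1403 cpm in the 8 cortices, and 1244, 1328.5 and 1492 cpm in the 7 hippocampi. The cerebella thus lay below every library of the other regions, and the sum was lower in the cerebellum of each of the 6 mice with a hippocampus library and each of the 7 with a cortex library. Within a mouse the hippocampus held 2.24 to 3.29 times and the cortex 2.14 to 3.21 times the sum of the cerebellum. Fewer microglia and less RNA of these genes per microglial cell cannot be told apart in whole tissue.

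**Figure D1:**
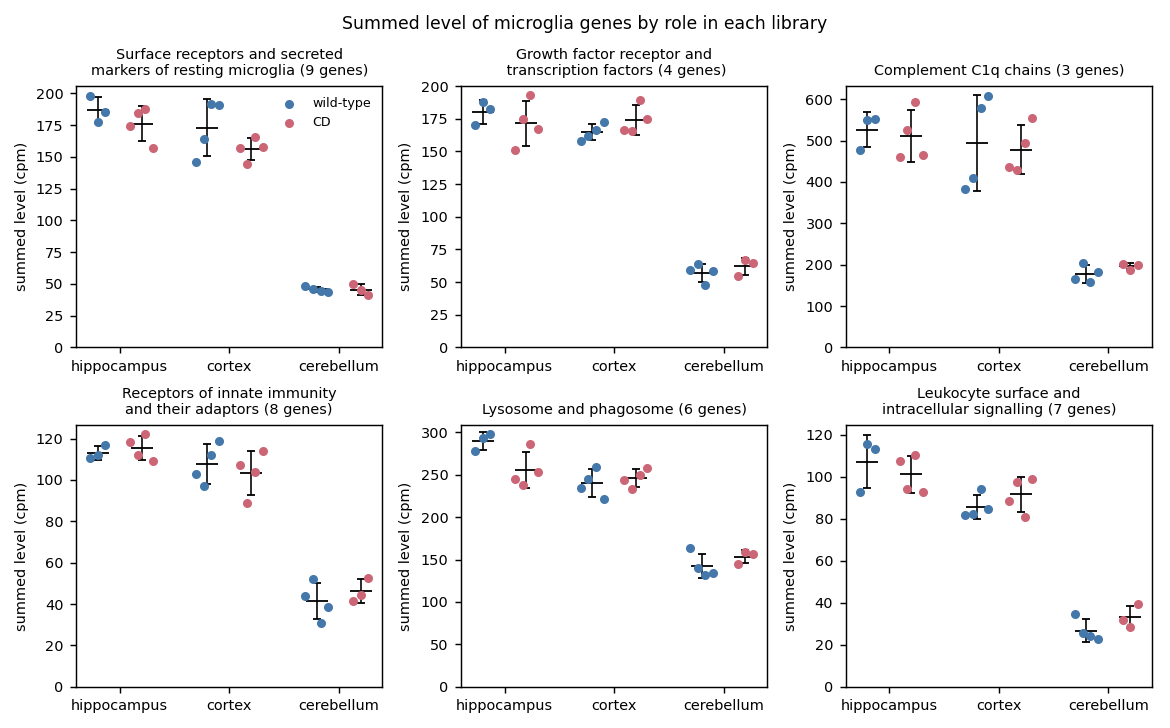
Summed level in cpm (y axis, from 0) of the microglia genes of 6 roles in each library, by region (x axis) and genotype (blue, wild-type; red, CD); black bars give the mean and SD of each group of 3 or 4 libraries. In all 6 panels every cerebellum lies below every hippocampus and cortex, and wild-type and CD points of a region overlap.

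Gene by gene, edgeR's quasi-likelihood test over all 22 libraries found 27 of the 29 tested genes lower in cerebellum than in hippocampus by more than 2-fold at an FDR (Benjamini-Hochberg over all genes tested) below 0.01, where 13% of all genes tested were lower by this rule. Against cortex, 26 of 29 were lower, with 12.9% of all genes. At an FDR below 0.05 without a fold limit all 29 were lower in both comparisons, against 30.7% and 30.8% of all genes. Both comparisons use the same cerebellum libraries and are not independent of each other. The median log2 fold change of the 29 genes was −1.59 against hippocampus and −1.53 against cortex, beside 0.02 for all genes tested in each comparison.

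The 8 members that passed the filter only through the other regions had to be low in the cerebellum. They are Aif1, P2ry12, Siglech, Ptprc, Fcgr3, Mpeg1, Unc93b1 and Inpp5d, and the counts and medians by role below include them. The overall counts were therefore repeated over genes that pass in cerebellum libraries alone. Of the 21 such members, 20 were lower past both thresholds against hippocampus (7.97% of genes) and 20 against cortex (8.12%), and all 21 were lower at an FDR below 0.05 (26.3% and 26.6% of genes). With no filter, 31 and 29 of the 37 listed genes passed both thresholds (9.98% and 9.39% of genes), and 35 and 34 passed an FDR of 0.05 (19.3% and 19.1%). For 27 of the 37 genes every cerebellum lay below every hippocampus and cortex, which held for 12.8% of the genes that passed the filter and 6.7% of all genes. The counts were alike within each genotype (26 of 28 tested genes in wild-type and 25 of 27 in CD libraries, in both comparisons), and without mouse m118 they were 26 and 26 of 29.

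**Figure D2:**
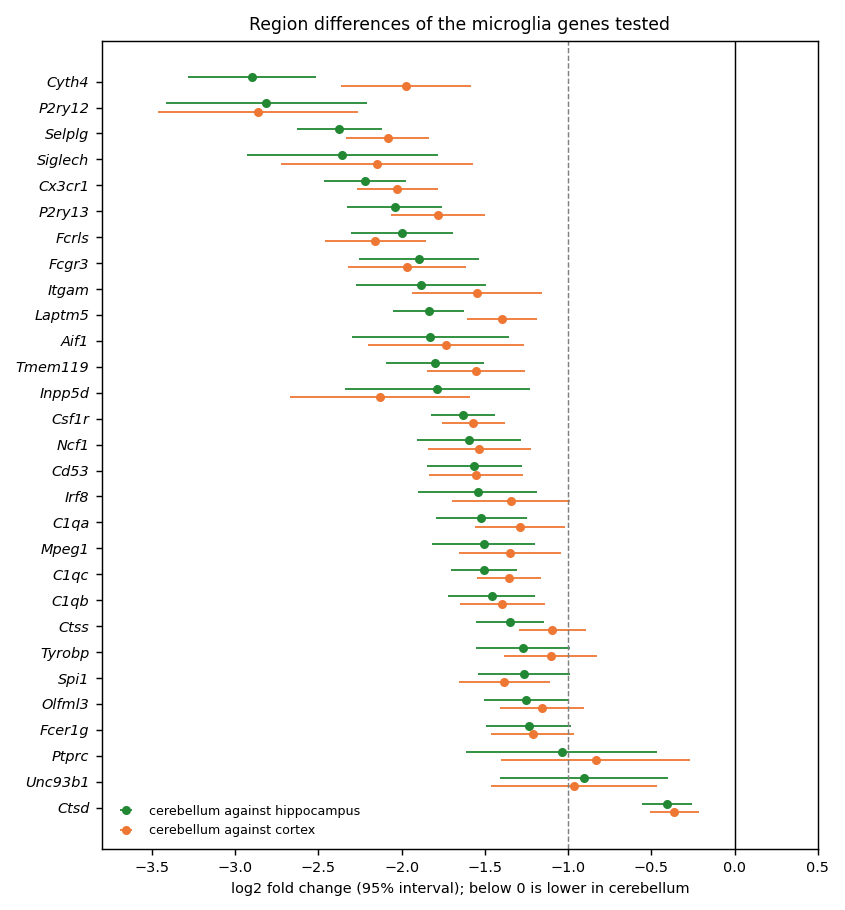
Log2 fold change (x axis) of the 29 tested microglia genes (y axis) in cerebellum against hippocampus (green) and against cortex (orange), with 95% intervals; 0 is no difference and the dashed line marks a 2-fold fall. All points lie left of 0, from Cyth4 and P2ry12 at the top to Ctsd at the bottom.

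Of the 6 roles, the surface receptors and secreted markers of resting microglia had the largest median fold change and summed ratio. All 8 tested genes of this group passed both thresholds in both comparisons, with median log2 fold changes of −2.13 against hippocampus and −2.06 against cortex. Summed over the 9 listed genes of the group, the level was 45.6 ± 2.78 cpm in cerebella (SD, n = 7), 165 ± 18.04 in cortices (n = 8) and 181 ± 12.9 in hippocampi (n = 7), a ratio of 3.96 for hippocampus and 3.61 for cortex. P2ry12, the ADP receptor that guides microglial processes, had a lowest, median and highest level of 0, 0.699 and 1.37 cpm in cerebella, 2.83, 4.94 and 6.13 cpm in cortices, and 3.54, 4.77 and 5.22 cpm in hippocampi. Its cerebella lay below all other libraries, while cortices and hippocampi overlapped each other. P2ry12 fell by 2.81 ± 0.29 (log2, SE) against hippocampus (FDR 7.4e-09) and fell by 2.86 ± 0.29 against cortex (FDR 4.3e-09). The neighbouring gene P2ry13, a related receptor that lies beside it on chromosome 3, fell by 2.04 ± 0.14 and 1.78 ± 0.14 on the log2 scale.

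Cx3cr1, the fractalkine receptor, ranged from 5.62 to 7.75 cpm in cerebella (median, 6.56), from 22.3 to 37.5 cpm in cortices (median, 25.7) and from 26.9 to 35.7 cpm in hippocampi (median, 31.1). The cerebella were separate from both other regions, which overlapped each other, and the fall was 2.22 ± 0.12 (log2) against hippocampus and 2.03 ± 0.12 against cortex (FDR 2.2e-14 and 1.0e-13). Tmem119, a membrane protein that marks microglia among brain macrophages, ranged from 5.43 to 9.27 cpm in cerebella, from 17.5 to 33.9 cpm in cortices and from 21.8 to 32.5 cpm in hippocampi, a fall of 1.80 ± 0.14 and 1.55 ± 0.14 (log2). Selplg, the P-selectin ligand that lies next to Tmem119 on chromosome 5, fell by 2.37 ± 0.12 and 2.08 ± 0.12. Siglech, a lectin of the Siglec family, fell by 2.36 ± 0.28 and 2.15 ± 0.28, and Fcrls, an Fc-receptor-like scavenger receptor, by 2.00 ± 0.15 and 2.16 ± 0.15. For Siglech the 1 transcript used held 19.7% of the counts summed over its distinct transcripts. Olfml3, a secreted protein, had the smallest fall of the group (1.25 ± 0.12 and 1.16 ± 0.12). Gpr34, a lysophosphatidylserine receptor, did not pass the filter and averaged 0.899 ± 0.392 cpm in cerebella (SD, n = 7), 3.04 ± 0.342 in cortices (n = 8) and 3.18 ± 1.16 in hippocampi (n = 7). In edgeR without a filter its log2 fold changes were −1.81 ± 0.34 against hippocampus (FDR 1.4e-06) and −1.77 ± 0.34 against cortex (FDR 2.4e-06).

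**Figure D3:**
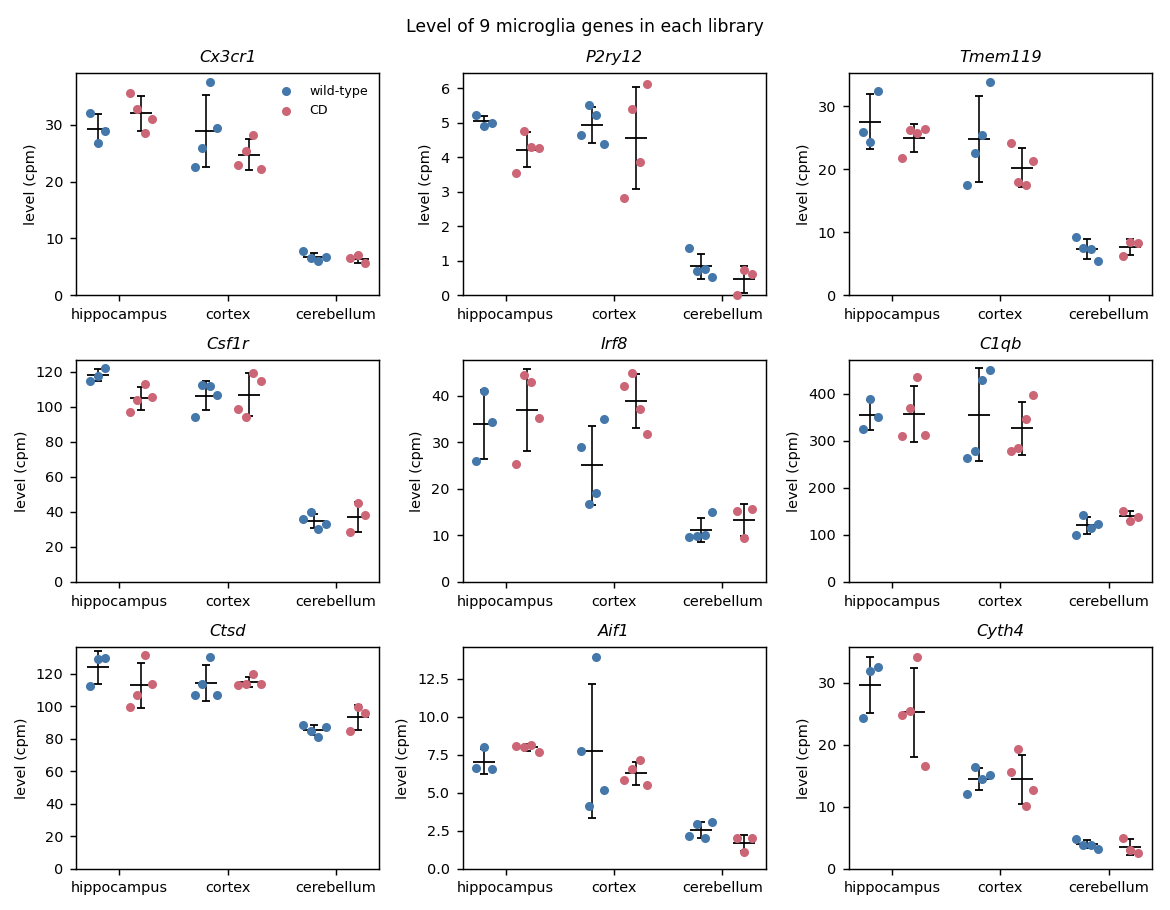
Level in cpm (y axes, from 0) of 9 microglia genes in each library, by region (x axis) and genotype (blue, wild-type; red, CD); black bars give the mean and SD of each group. The cerebella lie below all other libraries for 8 of the genes, and for Ctsd the highest cerebellum (99.6 cpm) meets the lowest hippocampus (99.5 cpm).

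The genes of the growth factor receptor and transcription factors, of which all 3 tested passed both thresholds in both comparisons, had median log2 fold changes of −1.54 and −1.38. Summed over 4 genes, hippocampi held 2.95 times and cortices 2.85 times the level of cerebella. Csf1r, the receptor for the survival factors CSF1 and IL-34, had a lowest, median and highest level of 28.3, 35.7 and 44.8 cpm in cerebella, 94.1, 109 and 119 cpm in cortices, and 97.0, 113 and 122 cpm in hippocampi. The cerebella were separate from both, with a log2 fall of 1.63 ± 0.09 against hippocampus and 1.57 ± 0.09 against cortex (FDR 6.0e-14 and 8.0e-14). Irf8 fell by 1.54 ± 0.17 and 1.34 ± 0.17, and Spi1 by 1.27 ± 0.13 and 1.38 ± 0.13. Sall1, a transcription factor that keeps microglial identity, did not pass the filter and was at 0.185 to 1.12 cpm in cerebella, 0.92 to 2.55 cpm in cortices and 0.86 to 3.65 cpm in hippocampi, so that its regions overlapped. Tested with edgeR and no filter, its log2 fold changes were −1.96 ± 0.44 against hippocampus (FDR 5.6e-05) and −1.71 ± 0.44 against cortex (FDR 6.9e-04).

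The 3 chains of complement C1q, which starts the classical complement pathway, are encoded side by side on chromosome 4 (GRCm38, 136880126 to 136898844) and moved by similar amounts. C1qb ranged from 98.8 to 152 cpm in cerebella (median, 130.1), from 264 to 451 cpm in cortices (median, 316) and from 311 to 435 cpm in hippocampi (median, 351). C1qa ranged from 7.07 to 12.01 cpm, 18.7 to 33.6 cpm and 24.3 to 33.1 cpm in the same regions, and C1qc from 35.7 to 54.9 cpm, 99.4 to 134 cpm and 122 to 168 cpm. No cerebellum reached the other regions for any chain, and the log2 fall was between 1.46 and 1.52 against hippocampus and between 1.29 and 1.40 against cortex. The 95% intervals of the C1qb fall (−1.72 to −1.20 against hippocampus, −1.65 to −1.14 against cortex) lay wholly above those of P2ry12 (−3.42 to −2.21 and −3.46 to −2.26) and Cx3cr1 (−2.47 to −1.98 and −2.27 to −1.78). This did not hold for every surface or secreted marker. The log2 fold changes of Olfml3, −1.25 against hippocampus and −1.16 against cortex, lay within the C1qb intervals. That of Tmem119 against cortex lay within the C1qb interval as well. Judged by their SEs, intervals of some other surface markers also overlapped those of C1qb, among them Tmem119 against hippocampus and P2ry13 against cortex. The summed level of the chains in hippocampi was 2.79 times and in cortices 2.62 times that in cerebella. The sum of the 9 surface and secreted markers was 0.209 to 0.293 times that of the 3 C1q chains in cerebella, 0.284 to 0.401 times in cortices and 0.317 to 0.415 times in hippocampi.

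Receptors of innate immunity and their adaptors were lower as well: 4 of the 5 tested genes passed both thresholds in each comparison and the fifth, Unc93b1, which brings Toll-like receptors to endosomes, passed an FDR of 0.05 (log2 fall of 0.90 ± 0.24 and 0.96 ± 0.24). The median log2 fold changes of the 5 were −1.27 and −1.21. The sum of the 8 listed genes was 2.63 and 2.42 times that of cerebella. Fcgr3, a low-affinity IgG receptor, fell by 1.90 ± 0.17 and 1.97 ± 0.17, and Itgam, the CD11b integrin chain of complement receptor 3, by 1.88 ± 0.19 and 1.55 ± 0.19. Tyrobp (the adaptor DAP12) and Fcer1g (the Fc receptor gamma chain) fell by 1.10 to 1.27. Trem2, a lipid-sensing receptor that signals through DAP12 and is usually a strong microglial marker, had 4 counts in all 22 libraries and 0 or 1 in each, so this table holds almost no reads for it and no region difference can be read. Cd14 and Ly86, partners of Toll-like receptor signalling, also stayed under the filter, with highest levels of 1.48 and 7.85 cpm. In edgeR without a filter Ly86 had log2 fold changes of −1.83 ± 0.35 against hippocampus (FDR 2.8e-06) and −1.06 ± 0.37 against cortex (FDR 0.014). Those of Cd14 were −1.77 ± 0.63 (FDR 0.018) and −0.41 ± 0.73 (FDR 0.82).

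Of 4 tested lysosomal and phagosomal genes, 3 passed both thresholds in each comparison, with median log2 fold changes of −1.43 and −1.22 over the 4, and the sum of the 6 listed genes in hippocampi was 1.84 times and in cortices 1.65 times that in cerebella. Laptm5, a lysosomal membrane protein of blood-lineage cells, fell by 1.84 ± 0.10 against hippocampus and 1.40 ± 0.10 against cortex, Mpeg1 (perforin-2) by 1.51 ± 0.15 and 1.35 ± 0.15, and Ctss (cathepsin S) by 1.35 ± 0.10 and 1.09 ± 0.10. Ctsd, cathepsin D, an aspartic protease made by nearly all cells, ranged from 80.9 to 99.6 cpm in cerebella (median, 87.1), from 107 to 130.2 cpm in cortices (median, 114) and from 99.5 to 132 cpm in hippocampi (median, 114). Its fall was 0.41 ± 0.07 and 0.36 ± 0.07 (log2; FDR 3.1e-05 and 9.0e-05), the smallest of the 29 genes in both comparisons. Cd68 and Lgmn missed the filter. Without a filter Cd68 fell by 0.73 ± 0.29 (FDR 0.035) and 0.91 ± 0.28 (FDR 0.0049), while Lgmn (legumain) averaged 1.77 ± 0.45 cpm in cerebella, 2.05 ± 0.806 in cortices and 1.28 ± 0.341 in hippocampi (SD, n = 7, 8 and 7) and did not pass the test against either.

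Of 6 tested genes for leukocyte surface proteins and intracellular signalling, 6 passed both thresholds against hippocampus and 5 against cortex, and the sum of the 7 listed genes was 3.52 and 3.00 times that of cerebella. Cyth4, a guanine-nucleotide exchange factor of ARF GTPases, had the largest fall of the 29 tested genes against hippocampus, though not against cortex, and ranged from 2.50 to 4.92 cpm in cerebella (median, 3.84), from 10.2 to 19.3 cpm in cortices (median, 14.8) and from 16.5 to 34.1 cpm in hippocampi (median, 25.4). The cerebella were separate from both, and on the log2 scale it fell by 2.90 ± 0.19 against hippocampus and 1.98 ± 0.19 against cortex. Aif1 ranged from 1.11 to 3.06 cpm in cerebella (median, 2.05), from 4.14 to 14.0 cpm in cortices (median, 6.22) and from 6.54 to 8.12 cpm in hippocampi (median, 8.01). Its cerebella lay below all other libraries, a fall of 1.83 ± 0.23 and 1.73 ± 0.23 (FDR 1.6e-07 and 3.2e-07). Inpp5d (the phosphatase SHIP1), Ncf1 (the p47phox subunit of NADPH oxidase) and the tetraspanin Cd53 fell by 1.53 to 2.13. Hpgds, the haematopoietic prostaglandin D synthase, stayed under the filter with 173 counts in all libraries. In edgeR without a filter its log2 fold changes were −2.17 ± 0.46 against hippocampus (FDR 2.5e-05) and −1.63 ± 0.48 against cortex (FDR 0.0028). Ptprc, the leukocyte phosphatase CD45, had a less certain fall, 1.04 ± 0.28 (FDR 0.0024) and 0.84 ± 0.28 (FDR 0.011). The log2 fold change of Ptprc, hippocampus vs cerebellum, dropped below 2-fold when any of 6 single libraries was left out (−0.87 without the cerebellum of wild-type mouse m244, the smallest), and without mouse m118 it was −0.94 (FDR 0.015).

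Hippocampus and cortex were close to each other. None of the 29 genes passed both thresholds (8.42% of genes in either direction), and 23 of 29 had a lower fitted level in cortex. The median log2 fold change of the 29 genes was −0.15, beside −0.012 for all genes tested. At an FDR below 0.05, 4 genes were lower in cortex (17.5% of genes) and 0 were higher. Cyth4 had the largest difference, with a fall of 0.92 ± 0.15 (log2, FDR 2.9e-05), that is 1.89-fold, and its levels overlapped between cortices and hippocampi (10.2 to 19.3 against 16.5 to 34.1 cpm). Laptm5 fell by 0.44 ± 0.09 (FDR 4.1e-04), Selplg by 0.29 ± 0.10 (FDR 0.030) and Ctss by 0.25 ± 0.09 (FDR 0.032). Without mouse m118 the count was 2, and library totals without a scaling factor gave 7. The largest log2 fold changes toward cortex (cortex minus hippocampus) were those of Inpp5d (0.35 ± 0.22), Fcrls (0.16 ± 0.13) and Spi1 (0.12 ± 0.12), none of which passed an FDR of 0.05.

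Genes for the ligands and partners of microglial receptors were mixed. Of 11 tested genes, 6 were lower past both thresholds in cerebellum than in hippocampus (13% of all genes tested) and 4 than in cortex (12.9%), with 0 higher in either. Cx3cl1, which encodes fractalkine, the ligand of CX3CR1, is made by neurons and fell by 2.41 ± 0.08 against hippocampus and 3.03 ± 0.08 against cortex. Il34, whose product binds CSF1R, fell by 1.81 ± 0.14 and 2.32 ± 0.13, while Csf1, the other CSF1R ligand, had log2 fold changes of −0.61 ± 0.24 (FDR 0.031) and 0.08 ± 0.25 (FDR 0.80). Itgb2, the partner chain of the CD11b integrin, fell by 1.49 ± 0.12 and 1.25 ± 0.12, and Cd200, a neuronal ligand that quiets microglia, by 1.19 ± 0.14 and 1.13 ± 0.14. Cd47, another inhibitory ligand, was higher in cerebellum at an FDR below 0.05 (0.48 ± 0.07 and 0.45 ± 0.07) and did not reach 2-fold.

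Genes known to rise in activated microglia did not follow the members. Of 13 tested genes, 2 were lower past both thresholds against hippocampus (13% of all genes tested) and 1 against cortex (12.9%). H2-D1, a class I histocompatibility chain, was higher in both (1.90 ± 0.16 and 1.41 ± 0.15). Lpl, lipoprotein lipase, which neurons also express, fell by 5.91 ± 0.20 and 4.31 ± 0.20, and the median of the 13 genes was −0.07 and −0.02. Summed over all 21 listed genes, cerebella held 1196 to 1342 cpm, cortices 1141 to 1403 cpm and hippocampi 1010.3 to 1339 cpm, so the regions overlapped. The mean of this sum in cerebella was 1299 cpm, above the 511 cpm of the 37 microglia genes. Which cells made this RNA cannot be told in whole tissue, so the list is no measure of microglial activation here. Cst7, which is strongly raised in microglia of diseased brain, had 3 or fewer counts in every library.

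Markers of other cells that share some of these genes were measured beside the members. Border-associated macrophages, which sit at vessels and meninges and also express Csf1r, Aif1 and C1q, had a summed level of 37.3 to 62.5 cpm in cerebella, 43.0 to 93.6 cpm in cortices and 26.6 to 58.8 cpm in hippocampi over 9 genes, of which 2 passed the filter. Cerebella thus overlapped both regions, and of the 2 tested genes Pf4 had log2 fold changes of 0.24 ± 0.29 (FDR 0.48) against hippocampus and −0.75 ± 0.27 (FDR 0.019) against cortex, and Cbr2 of 0.35 ± 0.18 (FDR 0.090) and −0.37 ± 0.17 (FDR 0.067). The 10 markers of blood leukocytes summed to 0.230 to 4.91 cpm in any library, and Camp, Cd3e, Cd79a and Plac8 had 3 or fewer counts in every library. Astrocyte markers summed to 7314 to 8560 cpm over 9 genes in cerebella, 4587 to 5222 cpm in cortices and 4691 to 5550 cpm in hippocampi. Gene by gene they were mixed: 3 of the 9 were higher in cerebellum past both thresholds in each comparison. The share of all genes higher by this rule is not given here, so no excess can be read from that count. By the same rule 2 were lower against hippocampus (13% of all genes tested) and 1 against cortex (12.9%). Oligodendrocyte markers were higher in hippocampus (4086 to 6541 cpm over 8 genes) than in cortex (1639 to 3342 cpm) and cerebellum (2265 to 3204 cpm), and neuronal markers were at 6269 to 7189, 7590 to 8774 and 6970 to 8653 cpm. Their part in the region difference was not tested.

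The comparison of CD with wild-type mice asked whether lowering circTulp4 changes microglial RNA, and with the filter on low counts no gene of the list passed a corrected threshold. In hippocampus 0 of 26 tested genes passed an FDR of 0.01 with 2-fold (0% of all genes) and 0 had an unadjusted p below 0.05 (4.22% of genes). In cortex 0 of 29 passed (0% of genes) and 3 had an unadjusted p below 0.05 (3.32%). In cerebellum 0 of 21 passed (0%) and 1 had an unadjusted p below 0.05 (4.55%). Over the 3 regions together, with limma-voom and the mouse as a random block, 0 of 29 passed (0%) and 2 had an unadjusted p below 0.05 (3.57%). DESeq2 also called 0 of the genes in each region at the same thresholds. Without mouse m118 the genes with an unadjusted p below 0.05 numbered 0 of 26, 2 of 29 and 1 of 20. Leaving out single libraries gave 0 to 3 in hippocampus (3 without CD mouse m190 or wild-type mouse m244), 1 to 5 in cortex (5 without wild-type mouse m244; 1 without CD mouse m138 or m242 or wild-type mouse m164 or m240) and 1 to 2 in cerebellum (2 without wild-type mouse m164).

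**Figure D4:**
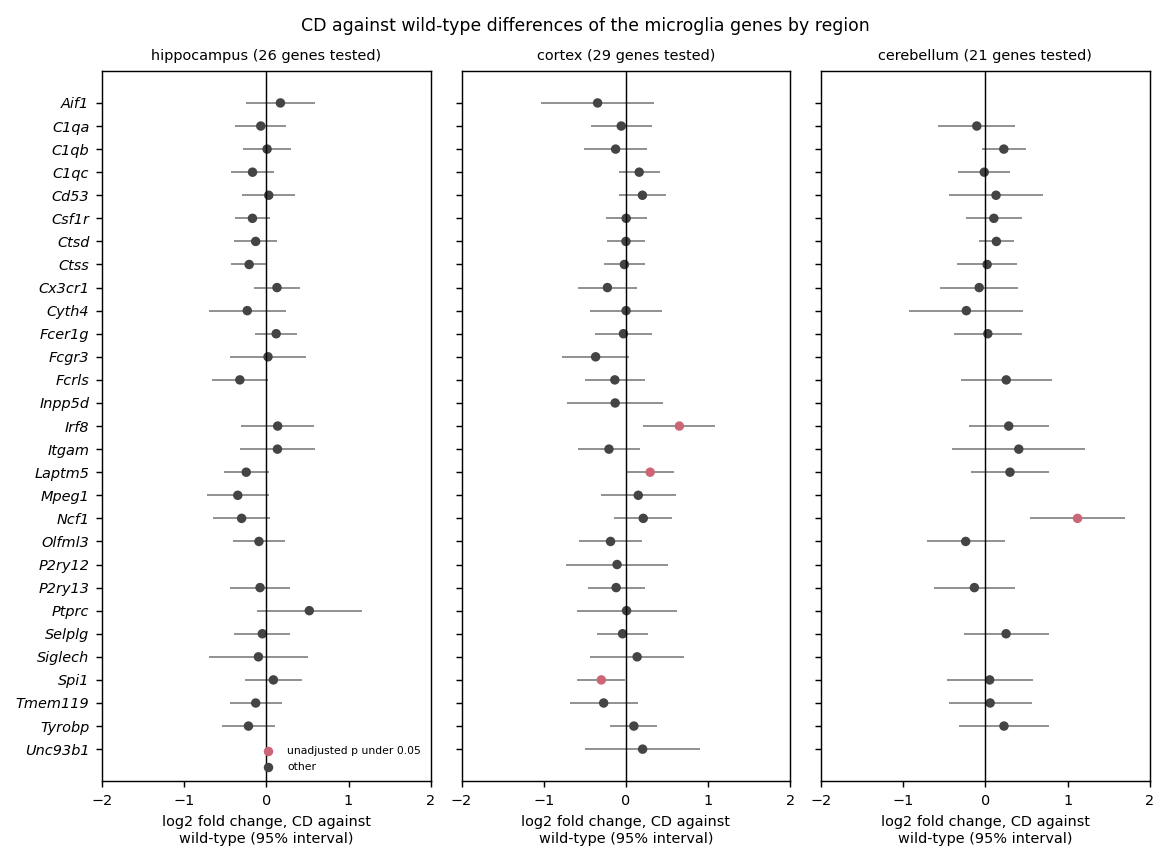
Log2 fold change of CD against wild-type (x axes) with 95% intervals for the microglia genes tested in each region (y axis); red points have an unadjusted p below 0.05 and a gap means that the gene did not pass the filter in that region. Points lie on both sides of 0, and the red ones are Irf8, Laptm5 and Spi1 in cortex and Ncf1 in cerebellum.

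Aif1, whose protein the study stained as IBA1, was at 8.10, 8.03, 8.12 and 7.67 cpm in the 4 CD hippocampi and at 6.61, 8.01 and 6.54 cpm in the 3 wild-type hippocampi. In cortex it was at 5.84, 6.59, 7.19 and 5.50 cpm in CD and at 7.74, 4.14, 14.0 and 5.18 cpm in wild-type mice, where mouse m240 was the highest. The groups overlapped in both regions, and the log2 difference was 0.17 with a 95% interval of −0.25 to 0.59 in hippocampus and −0.34 with an interval of −1.03 to 0.34 in cortex. Without mouse m118 the difference was 0.17 in hippocampus and −0.31 in cortex, and without the cortex of wild-type mouse m240 the cortical difference was 0.10. The intervals are wide, and a p that misses the threshold does not show equal levels. Aif1 did not pass the filter in cerebellum, where it was at 2.05, 1.11 and 2.00 cpm in CD and 2.13, 2.97, 2.05 and 3.06 cpm in wild-type mice. For Csf1r the interval was −0.38 to 0.04 in hippocampus, −0.25 to 0.25 in cortex and −0.23 to 0.44 in cerebellum.

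In cortex the member with the smallest p was Irf8, at 42.0, 45.0, 37.2 and 31.8 cpm in CD and 29.1, 16.8, 19.2 and 35.1 cpm in wild-type mice. The groups overlapped, and the difference was 0.65 ± 0.21 on the log2 scale (edgeR, FDR of 1). Laptm5 was at 21.5, 24.9, 23.3 and 24.6 cpm in CD and 18.4, 17.9, 19.6 and 21.1 cpm in wild-type cortices. It was the only one of the 29 whose groups did not overlap in cortex, where 2.54% of all genes tested did not in either direction. Its log2 difference was 0.30 ± 0.14 (FDR of 1). Spi1 was at 24.1, 24.0, 31.4 and 25.9 cpm in CD and 33.6, 32.2, 34.0 and 28.7 cpm in wild-type cortices, with a log2 difference of −0.30 ± 0.14 (FDR of 1), and its groups overlapped. In hippocampus the members with the smallest p were Ctss (−0.21 ± 0.10), Fcrls (−0.32 ± 0.16) and Mpeg1 (−0.35 ± 0.17), each with an FDR of 1. Without mouse m118 these differences were −0.22, −0.28 and −0.39, and Fcrls was at −0.16 without wild-type mouse m162. Csf1r, Ctss and Mpeg1 of the 26 tested genes were lower in every CD library than in every wild-type library. Of the 9960 genes tested there, 273 were lower in this way and 266 higher (5.41% in either direction). Csf1r was at 97.0, 104, 113 and 106 cpm in CD and 115, 117.6 and 122 cpm in wild-type hippocampi, and its log2 difference of −0.17 ± 0.10 did not pass the test (FDR of 1) and was −0.13 ± 0.10 without mouse m118. P2ry12, too low for the test in hippocampus, was at 3.54, 4.77, 4.28 and 4.26 cpm in CD and 5.22, 4.90 and 4.99 cpm in wild-type mice, and these groups did not overlap either. The first CD value of each gene here is that of mouse m118. Leaving this mouse out cannot make separate groups overlap, so it is no check of the groups of Csf1r, Ctss, Mpeg1 and P2ry12.

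Ncf1 in cerebellum had the smallest p of any member within a region. It was at 11.3, 8.67 and 17.5 cpm in the 3 CD cerebella and at 4.87, 4.89, 5.77 and 7.81 cpm in the 4 wild-type cerebella, so the groups did not overlap. It was the only one of the 21 tested genes for which this held in cerebellum (5.35% of all genes tested, in either direction). The log2 difference was 1.12 ± 0.27, with a 95% interval of 0.55 to 1.70 (edgeR, FDR 0.98). In hippocampus the CD libraries were at 22.3, 23.6, 22.3 and 25.3 cpm and the wild-type libraries at 22.1, 30.7 and 33.7 cpm, a log2 difference of −0.30 ± 0.16, or −0.28 ± 0.17 without mouse m118. In cortex the CD libraries were at 25.3, 28.6, 20.7 and 32.5 cpm and the wild-type libraries at 19.7, 22.3, 26.4 and 24.7 cpm, a log2 difference of 0.21 ± 0.17. The log2 fold change of Ncf1, CD vs WT cerebellum, was 1.19 without mouse m118 (FDR of 1) and 0.77 without mouse m242, whose library was the highest. Tested with no filter on low counts, the cerebellar difference reached an FDR of 0.0032, and it was the only member called under that setting. The other genes of the list that passed in cerebellum had log2 differences between −0.24 and 0.41, and the next in order of p were C1qb (0.22 ± 0.13, or 0.14 without wild-type mouse m162) and Laptm5 (0.30 ± 0.22, or 0.099 without CD mouse m118). Over the 3 regions together the members with the smallest p were Ncf1 (0.35 ± 0.12), Irf8 (0.38 ± 0.14) and P2ry12 (−0.46 ± 0.27), each with an FDR of 1. The value of P2ry12 was −0.19 without the cerebellum of CD mouse m118.

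**Figure D5:**
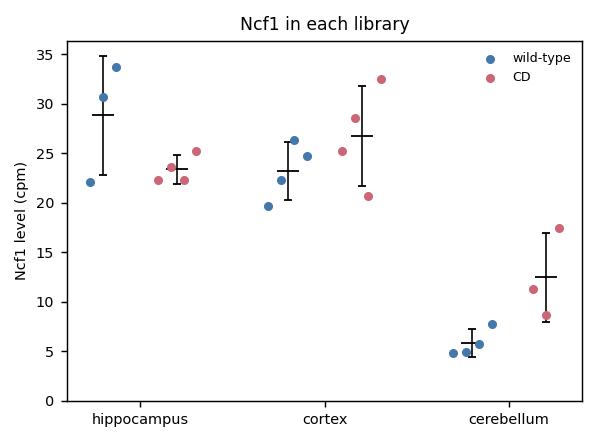
Level of Ncf1 in cpm (y axis, from 0) in each library, by region (x axis) and genotype (blue, wild-type; red, CD); black bars give the mean and SD. The 3 CD cerebella (8.67 to 17.5 cpm) lie above the 4 wild-type cerebella (4.87 to 7.81 cpm), and the genotypes overlap in hippocampus and cortex.

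Whether the genotype difference itself differed between regions was tested with the interaction terms of the fit over all 22 libraries. No member passed an FDR of 0.05 (0% of all genes), and 3 had an unadjusted p below 0.05 (3.92% of genes): Ncf1 (FDR 0.65), Fcgr3 (FDR of 1) and Laptm5 (FDR of 1). With no filter on low counts Ncf1 reached an FDR of 0.011 in this test. The summed level of the 37 genes was 1244 to 1492 cpm in CD and 1328 to 1447 cpm in wild-type hippocampi, 1159 to 1358 and 1106 to 1403 cpm in cortices, and 524 to 554 and 437 to 533 cpm in cerebella, with overlap of the genotypes in each region.

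Among libraries of the same group the members varied together only weakly. Over the 406 pairs of the 29 tested genes the median correlation of deviations from the group means (log2 cpm, 22 libraries) was 0.09 and 62.1% of pairs were positive, beside −0.0023 and 49.7% for pairs of a member with another gene, all of which share the same libraries and depths. The highest value was that of Ctss with Cd53 (0.79), followed by C1qc with Fcer1g (0.75), and the lowest was that of Siglech with Itgam (−0.70).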

How the data were processed

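RNA of hippocampus, cortex and cerebellum was sequenced by a CelSeq2-based 3′ protocol. The authors aligned reads to mm10 with STAR and counted them with ESAT, and the deposited values are raw counts per RefSeq transcript for 22 libraries. Whether molecular identifiers were collapsed, and how reads shared by similar genes (Fcgr3 and its relatives, for example) were assigned, are not given in the sources used here. Of 85964 transcripts, 69280 were matched by accession without version (34835 with the same version) to RefSeq genes of GRCm38.p6, which held 81.4% of counts. For each gene the transcript with the most counts was used, giving 23033 genes and 2757684 to 8847478 counts per library. Sums and tests use this table.

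Following the methods of the study, a gene was kept in a fit when 2 or more of its libraries reached 5 cpm. Regions were compared with edgeR 4.0.16 (TMM, quasi-likelihood, 6 group means, 22 libraries), and genotypes within each region with the same test on the libraries of that region. Genotypes over regions were compared with limma 3.58.1 (voom), with the mouse as a random block (correlation 0.0294). Tests used R 4.3.3 and figures Python 3.11. The edgeR and voom fits were tested on simulated data. Intervals are 95% intervals of the fits, and p-values measure the spread between mice. FDR is the Benjamini-Hochberg value over all genes tested. Fold changes of edgeR are coded as cerebellum minus the other region, cortex minus hippocampus, and CD minus wild-type. The same mice gave several regions, as the labels state, so regions are paired by mouse. Deviations from group means of libraries of 1 mouse correlated weakly (mean r of 0.086, 0.049 and −0.0043 for the 3 pairs of regions). Within a region no mouse is shared between genotypes.

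The 37 genes, their roles, the other gene lists and the motifs were chosen with earlier results of these data known. All members were accounted for, and full values were given for Aif1, the defining markers, members past both thresholds or extreme in a pair of regions, the 3 members with the smallest p in each comparison of genotypes, and members under the filter. Of the genes of the other lists that passed both thresholds, only some were named. Cd47, Csf1, Pf4, Cbr2, Cst7 and Tgfb2 were named after their values were seen. Alternatives were DESeq2 1.42.0, library totals in place of TMM, no filter, sums over transcripts, each genotype alone, the mouse as a block, each library left out and, added after the data were seen, mouse m118 left out.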

Additional observations from a re-analysis of the deposited data

Results flagged for a closer look

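In 6 of 120 groups of 4 libraries tested, 1 library stood apart from the other 3 of its group (Dixon's test at the 95% level), and chance flags about 1 in 20 groups, that is 6. Tmem119 was at 21.8 cpm in the CD hippocampus of mouse m118 and at 25.7 to 26.4 cpm in the other 3. C1qa was at 7.07 cpm in the wild-type cerebellum of mouse m240 and at 11.2 to 12.01 cpm in the others. In the wild-type cortex of mouse m164 Olfml3 was at 12.7 cpm against 18.7 to 19.5 cpm, and Cd53 was at 31.5 cpm against 26.3 to 26.6 cpm. Irf8 was at 14.9 cpm in the wild-type cerebellum of mouse m244 and at 9.58 to 10.04 cpm in the others. Ctsd was at 119.9 cpm in the CD cortex of mouse m190 and at 113.3 to 113.6 cpm in the others.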

How the results depend on the processing

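The counts of microglia genes lower in cerebellum past both thresholds were 25 to 28 (hippocampus) and 22 to 27 (cortex) under all alternatives with a filter. Without TMM the median of all genes moved by 0.18 and 0.24 (log2), and the members' medians relative to it were −1.61 and −1.55, with 26 and 22 genes past both thresholds. With the mouse as a replicate block the counts were 27 and 27, and the block changed no call count by over 1.5 times. Between hippocampus and cortex, 1 gene (Cyth4) passed both thresholds with wild-type libraries only, and 0 to 1 did so when single libraries were left out. It passed without the cortex of CD mouse m138 and without the hippocampus of CD mouse m242. At an FDR below 0.05 the 4 genes lower in cortex became 7 with library totals, 2 with wild-type only, 2 with CD only, 2 without mouse m118 and 2 to 6 when single libraries were left out, with 2 without the cortex of CD mouse m138 or the hippocampus of wild-type mouse m162 or m244. Without a filter, 1 gene (Ncf1) was called between genotypes in cerebellum and 1 (Ncf1) in the interaction test. The log2 fold change of Spi1, hippocampus vs cortex, turned from 0.12 to −0.071 with CD libraries only. The log2 fold change of Aif1, CD vs WT cortex, was −0.34 with all libraries and 0.10 without wild-type mouse m240, in a range of −0.55 to 0.10 when single libraries were left out. The cause of these changes was not tested. Of the fold changes of single genes, 2348 kept direction and call, 14 lost the call and 12 gained it. The 8 genes under the filter had few counts (4 in all libraries for Trem2), which limits what can be read for them.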

Other observations

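Genes raised in activated microglia, a program that includes antigen presentation and lipid handling, were also compared between genotypes. The cells that made this RNA cannot be told in whole tissue, so it does not measure the state of microglia. In hippocampus all 13 tested genes had a lower fitted level in CD mice, with a median log2 fold change of −0.28 beside −0.0057 for all genes tested, and 0 passed a corrected threshold, while 1 (Lpl) had an unadjusted p below 0.05. The summed level of the 21 listed genes was 1010.3 to 1211 cpm in CD and 1205 to 1339 cpm in wild-type hippocampi, so the groups overlapped. Without mouse m118, whose hippocampal library went against its label, the median was again −0.28, with 0 of 13 above 0 and 1 at an unadjusted p below 0.05. In cortex and cerebellum the medians were −0.14 (12 genes tested) and −0.07 (11 genes tested), with 5 and 4 genes above 0, and −0.19 and 0.0025 without mouse m118, with 3 and 6 above 0. Whether the difference depends on the region was not tested for this list.

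Transforming growth factor beta 2 (Tgfb2), a cytokine of the family that keeps microglia in their resting state, was lower in cortex than in hippocampus by 2.73 on the log2 scale, while Cx3cl1 and Il34 were higher in cortex by 0.62 and 0.52.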
